A study of Mus with 8 samples.

Results

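A set of 9 genes of the mouse MHC class II antigen presentation pathway was followed with Ciita, the gene of their transcriptional activator. The data were 8 libraries of bone marrow monocytes grown in stiff hydrogels. The 10 genes were taken from a fixed list of Ensembl identifiers, and all 10 were found among the 17640 identifiers of the deposited count table. The genes were selected on their values in elastic against viscous gel in these libraries, so that difference is given below as a description, with no test. The genotype comparisons and the comparison of the gel effects between genotypes are not the contrast that chose the genes, and they are tested. They use the same libraries, and the genes were chosen with earlier results of these data known. Their p-values may therefore not be free of that choice.

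Jak2 V617F cells came from mice labelled Jak2 V617F Vav-iCre, which carry the mutation as a knock-in, and control cells from mice labelled Vav-iCre. Both genotypes therefore carry the Vav-iCre transgene, whose recombinase acts in blood-forming cells, and both are on the C57BL/6 strain. Jak2 V617F is an activating mutation of a cytokine receptor kinase and a driver of myeloproliferative neoplasm. Cells of each genotype were placed in an elastic gel or a viscous gel, which gave 4 groups of 2 libraries: Jak2 V617F elastic, Jak2 V617F viscous, control elastic and control viscous. All groups were sampled at day 3 of culture with PGE2 at 100 ng/mL, IL4 at 200 ng/mL and GM-CSF at 100 ng/mL. The labels give no age or sex of the mice and do not say how many mice were used. Titles end in a number that 1 elastic and 1 viscous library of a genotype share. These numbers are called J1 and J2 in Jak2 V617F cells and W1 and W2 in control cells.

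MHC class II molecules carry peptides from taken-up protein to the surface of antigen-presenting cells, where CD4+ T cells read them. Ciita does not bind DNA itself but is recruited to a shared promoter element of the class II genes and switches them on, and myeloid cells raise the pathway as they take on dendritic cell features under GM-CSF and IL4. H2-Aa and H2-Ab1 encode the chains of I-A. H2-Eb1 encodes the beta chain of I-E, whose alpha chain gene is disrupted in C57BL/6 mice, so that I-E does not reach the surface in this strain. Cd74 is the invariant chain, which fills the peptide groove during transport. The H2-DM proteins exchange its remnant for peptide, and H2-O inhibits H2-DM, mainly in B cells and some dendritic cells.

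On GRCm38.p6, in the RefSeq gene table, Ciita lies on chromosome 16 (10480014 to 10531064) and Cd74 on chromosome 18 (60803849 to 60812652). The other 8 genes lie within 224296 bases of chromosome 17 (34092379 to 34316674), in the order H2-Oa, H2-DMa, H2-DMb2, H2-DMb1, H2-Ob, H2-Ab1, H2-Aa and H2-Eb1. H2-DMb2 ends 1637 bases before H2-DMb1 starts, and these are a pair of closely related genes for the beta chain of H2-DM. The submitters' processing notes name Salmon, a tool that divides reads shared by related genes by estimation, without saying how it was used. The division of counts between H2-DMb1 and H2-DMb2 is therefore uncertain. Of the 10 genes, 4 overlap another annotated gene: Ciita overlaps Dexi and a second locus, H2-DMa overlaps Brd2, H2-Oa overlaps BC051537 and Cd74 overlaps a microRNA gene. Strand use in the counting was not given in the sources used here.

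Libraries held 30632355 to 38408851 counts. The first principal component (41.5% of the variance of log2 levels) set both W1 libraries, with scores of 69.4 and 78.2, apart from the other 6, with scores of −37.1 to −10.9. Results are therefore also given without W1 where it decides a value. The table pairs no identifier with a symbol, so markers of monocytes, of other cell types and the level of Jak2 were not analysed here, and the cell type label was not checked. In these bulk libraries fewer cells that express class II and less RNA per cell cannot be told apart. The labels do not say that libraries came from separate mice. The p-values therefore set a difference against the spread between these libraries, and that spread may be technical.

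Levels are counts per 1000000 counts of a library (CPM), with library totals scaled by TMM. They are compared between libraries for 1 gene at a time and not between genes, since they are not divided by transcript length. All 10 genes passed the low-count filter that left 14785 genes for the comparisons of libraries. The smallest count was 6, for H2-Ob.

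**Figure D1:**
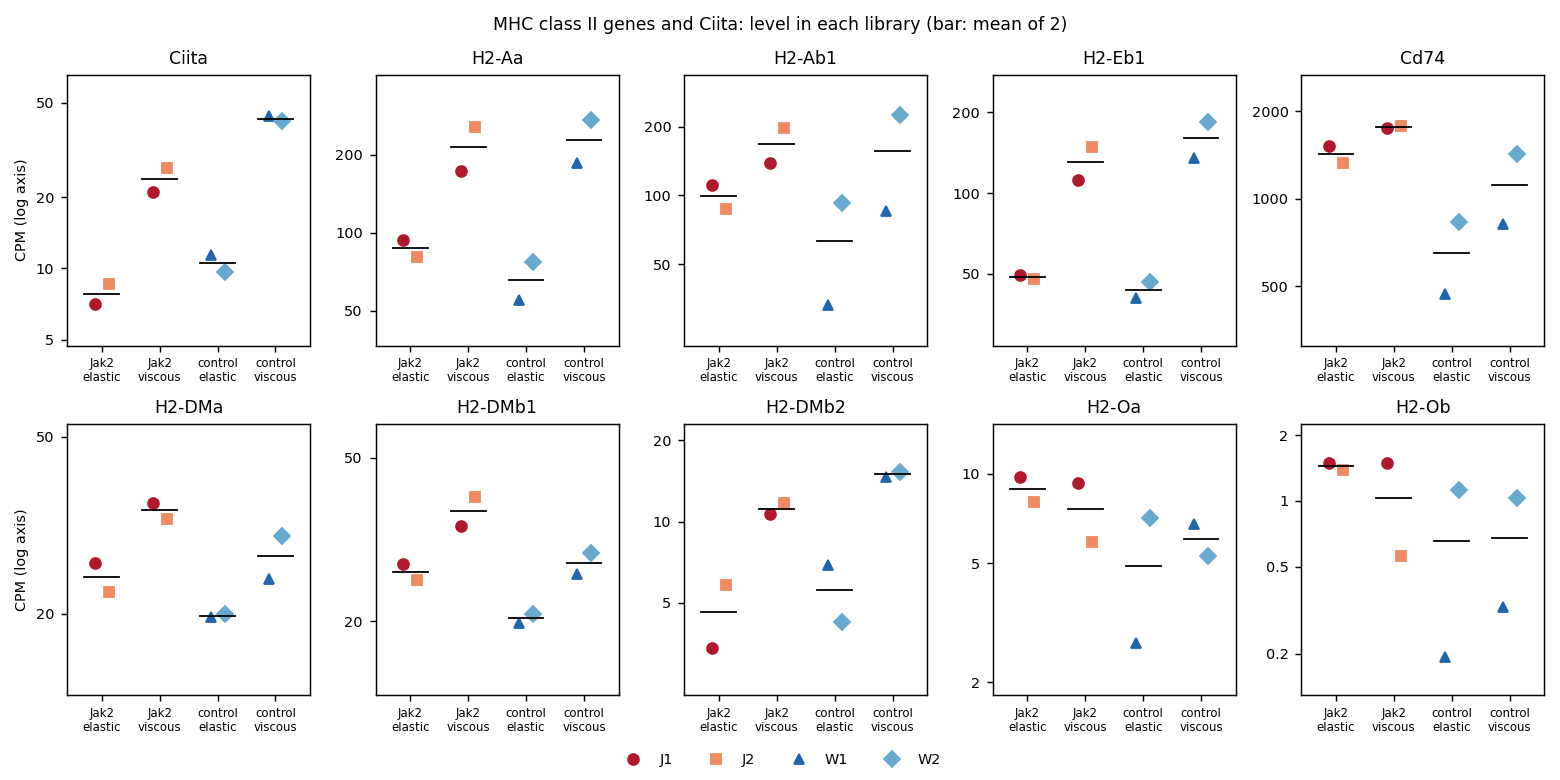
Level of each gene in each library (CPM, log axis), with groups on the horizontal axis, 1 point per library and a bar at the mean of the 2 libraries of a group. For Ciita, H2-Aa, H2-Eb1 and H2-DMb2 all 4 elastic libraries sit below all 4 viscous ones, and for Cd74 both Jak2 V617F libraries sit above both control libraries in each gel.

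Ciita (ENSMUSG00000022504), the activator of the pathway, was lower in elastic than in viscous gel in both genotypes. Its level was 7.08 and 8.56 CPM in Jak2 V617F cells in elastic gel (J1 and J2), against 21.0 and 26.5 CPM in Jak2 V617F cells in viscous gel. In control cells it was 11.4 and 9.62 CPM in elastic gel (W1 and W2), against 43.9 and 41.8 CPM in viscous gel. The 4 groups did not overlap, and their order from high to low was control viscous, Jak2 V617F viscous, control elastic and Jak2 V617F elastic. The log2 fold change of elastic over viscous gel was −1.60 (SE 0.18) in Jak2 V617F cells and −2.03 (SE 0.18) in control cells.

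The peptide-binding chains were also lower in elastic gel, by different amounts. H2-Aa (ENSMUSG00000036594), the alpha chain of I-A, stood at 93.4 and 80.9 CPM in elastic gel and at 173.6 and 255.2 CPM in viscous gel in Jak2 V617F cells (J1 and J2). In control cells H2-Aa stood at 54.9 and 76.9 CPM in elastic gel and at 185.4 and 272.4 CPM in viscous gel (W1 and W2). No elastic library reached the lowest viscous library, while the genotypes overlapped within viscous gel. H2-Eb1 (ENSMUSG00000060586), the beta chain of I-E, had similar elastic values in both genotypes, 49.4 and 47.8 CPM in Jak2 V617F cells and 40.5 and 46.6 CPM in control cells. Its viscous values were 112.0 and 149.0 CPM in Jak2 V617F cells and 135.2 and 184.2 CPM in control cells, all above its elastic ones.

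H2-Ab1 (ENSMUSG00000073421), the beta chain that pairs with H2-Aa, varied more between control libraries than the other peptide-binding chains. In Jak2 V617F cells it stood at 111.3 and 86.8 CPM in elastic gel and at 138.5 and 196.5 CPM in viscous gel. In control cells it was 32.9 CPM (W1) and 92.9 CPM (W2) in elastic gel, and 85.8 CPM (W1) and 225.8 CPM (W2) in viscous gel. W1 in viscous gel thus lay below W2 in elastic gel, and no neighbouring groups in the order of means (Jak2 V617F viscous, control viscous, Jak2 V617F elastic, control elastic) were separate. Averaged over genotypes, the log2 fold changes of elastic over viscous gel were −1.55 (SE 0.20) for H2-Aa, −1.65 (SE 0.15) for H2-Eb1 and −1.03 (SE 0.42) for H2-Ab1. For H2-Ab1 the value was −1.02 (SE 0.18) without both W1 libraries, −0.60 without W2 in viscous gel and −1.499 without W2 in elastic gel.

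Cd74 (ENSMUSG00000024610), the invariant chain, differed less between gels than the chains it escorts. Its level was 1518 and 1332 CPM in elastic gel and 1751 and 1786 CPM in viscous gel in Jak2 V617F cells (J1 and J2). In control cells it was 469.5 and 832.4 CPM in elastic gel and 817.4 and 1423 CPM in viscous gel (W1 and W2). The control groups overlapped, because W1 in viscous gel was close to W2 in elastic gel. The log2 fold change of elastic over viscous gel was −0.31 (SE 0.36) in Jak2 V617F cells and −0.78 (SE 0.36) in control cells. The value in control cells was −0.32 without W2 in viscous gel and −1.25 without W2 in elastic gel. In these fits the lower level of W1 than W2, present in both gels, enters the gel difference. Within a title number the difference in log2 CPM, elastic minus viscous, was −0.80 in W1 and −0.77 in W2.

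Within the H2-DM genes, H2-DMb2 (ENSMUSG00000037548) had the largest difference between gels. It was at 3.41 and 5.84 CPM in elastic gel and at 10.6 and 11.7 CPM in viscous gel in Jak2 V617F cells. In control cells H2-DMb2 was at 6.91 and 4.24 CPM in elastic gel and at 14.7 and 15.3 CPM in viscous gel. All its elastic libraries lay below all its viscous ones, with a log2 fold change of −1.35 (SE 0.23) averaged over genotypes. The alpha chain gene H2-DMa (ENSMUSG00000037649) and the other beta chain gene, H2-DMb1 (ENSMUSG00000079547), had log2 fold changes of −0.47 each (SE 0.11 and 0.097). H2-DMa averaged 24.2 ± 2.57 CPM in elastic gel and 34.1 ± 2.01 CPM in viscous gel in Jak2 V617F cells, and 19.8 ± 0.21 CPM in elastic gel and 26.9 ± 4.23 CPM in viscous gel in control cells (SD, n = 2 in each group). H2-DMb1 averaged 26.3 ± 1.68 CPM in elastic gel and 37.2 ± 4.32 CPM in viscous gel in Jak2 V617F cells, and 20.3 ± 0.75 CPM in elastic gel and 27.7 ± 2.37 CPM in viscous gel in control cells (SD, n = 2 in each group). With the counts of H2-DMb1 and H2-DMb2 added up, the log2 fold change was −0.68 (SE 0.088). The separate values of H2-DMb1 and H2-DMb2 cannot be told apart from how reads were divided between them.

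The H2-O genes showed no common direction between gels. H2-Oa (ENSMUSG00000024334) stood at 9.75 and 8.02 CPM in elastic gel and at 9.31 and 5.92 CPM in viscous gel in Jak2 V617F cells (J1 and J2). In control cells it stood at 2.71 and 7.10 CPM in elastic gel and at 6.78 and 5.29 CPM in viscous gel (W1 and W2). All 4 groups of H2-Oa overlapped their neighbours in the order of means. Its log2 fold change averaged over genotypes was −0.038 (SE 0.33), and 0.32 (SE 0.23) without both W1 libraries. H2-Ob (ENSMUSG00000041538) had 51 and 44 counts in elastic gel and 59 and 20 counts in viscous gel in Jak2 V617F cells. In control cells H2-Ob had 6 and 36 counts in elastic gel and 12 and 33 counts in viscous gel, so its ratios are imprecise.

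Across the 10 genes, 4 had all elastic libraries below all viscous libraries (Ciita, H2-Aa, H2-Eb1 and H2-DMb2) and 6 overlapped. Of the 14785 genes tested, 1.66% had all 4 elastic libraries below all 4 viscous ones, and 2.07% had all 4 above. In Jak2 V617F cells both elastic libraries lay below both viscous ones for 8 of the 10 genes (20.6% of all genes) and in control cells for 6 (13.8% of all genes). Within each title number, 8 of the 10 genes were lower in elastic gel in all 4 numbers, against 10.8% of all genes. These counts rest on the contrast that chose the genes and describe it only. For the same contrast edgeR's quasi-likelihood test called 0% of all genes at an adjusted p under 0.05, and DESeq2 called 0.906%. DESeq2 called 0.237% in Jak2 V617F cells and 0.237% in control cells.

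**Figure D2:**
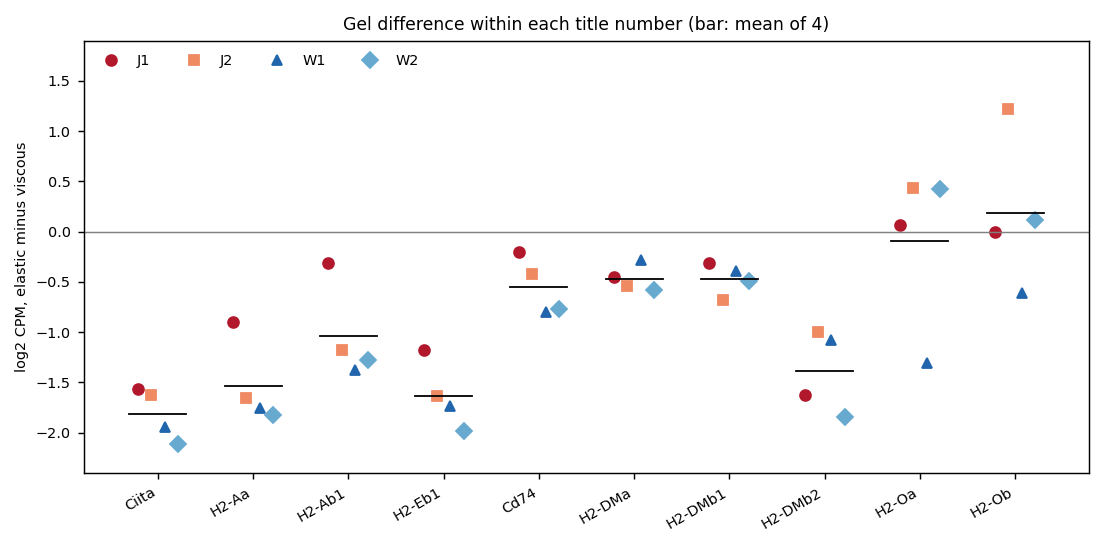
Difference in log2 CPM between the elastic and the viscous library of the same title number (J1, J2, W1, W2) for each gene, with a bar at the mean of the 4. Ciita, the peptide-binding chains, Cd74 and the H2-DM genes lie below 0 in each number, while H2-Oa and H2-Ob lie on both sides of it.

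The size of the gel difference varied between title numbers by gene. For Ciita the elastic level was 33.6% (J1), 32.3% (J2), 26.0% (W1) and 23.0% (W2) of the viscous level of the same number. For H2-Aa it was 53.8% (J1), 31.7% (J2), 29.6% (W1) and 28.2% (W2), and for H2-Ab1 80.4% (J1), 44.2% (J2), 38.4% (W1) and 41.2% (W2). J1 thus had the highest elastic share for both chains of I-A, and also for H2-Eb1 at 44.1%, against 25.3% to 32.1% in the other numbers. For H2-DMb2 the lowest shares were 27.7% in W2 and 32.0% in J1, against 47.1% in W1 and 49.8% in J2. The numbers therefore ordered differently for H2-DMb2 than for the I-A chains.

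**Figure D3:**
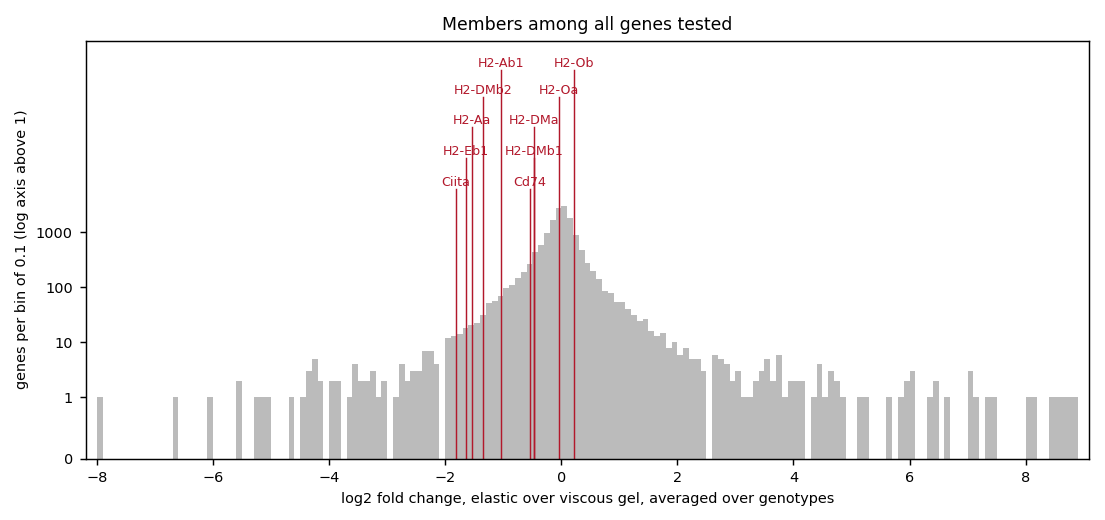
Histogram of the log2 fold change of elastic over viscous gel, averaged over genotypes, for the 14785 genes tested (bins of 0.1; vertical axis logarithmic above 1), with the 10 genes marked. They spread from −1.82 (Ciita) to 0.22 (H2-Ob), while all genes spread from −7.97 to 8.87.

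Counted from the lowest log2 fold change of elastic over viscous gel, Ciita ranked 93, H2-Eb1 119, H2-Aa 137, H2-DMb2 182 and H2-Ab1 360 of 14785 genes. Cd74 ranked 1048, H2-DMb1 1290 and H2-DMa 1301. H2-Oa ranked 6405 and H2-Ob 12524. The median log2 fold change of the 10 genes was −0.79, against −0.0043 over all genes tested. In Jak2 V617F cells the median of the 10 genes was −0.63 (−0.011 over all genes) and in control cells −1.05 (0.0011 over all genes). These ranks and medians rest on the contrast that chose the genes, so low values follow from that choice and are a description only.

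The next comparison asked whether the gel effect differed between genotypes, as the log2 fold change of elastic over viscous gel in Jak2 V617F cells less the same value for control cells. For 8 of the 10 genes this difference was positive, meaning a smaller reduction or a larger increase in elastic gel in Jak2 V617F cells. The share of all genes with a positive difference was not counted. With 1 library left out, the difference stayed positive for Ciita, H2-Aa, H2-Eb1 and Cd74. It changed sign in at least 1 such fit for H2-Ab1, H2-DMb2, H2-Oa and H2-Ob, and also for the negative H2-DMa and H2-DMb1. edgeR called 0 of the 10 genes, and 0% of all genes, with 0 of the 10 (1.72% of all genes) at an unadjusted p under 0.05. DESeq2 (0.0135% of all genes) and limma-voom (0% of all genes) also called 0 of the 10. For Ciita the difference was 0.42 (95% interval −0.18 to 1.02), for H2-Aa 0.50 (−0.46 to 1.45) and for H2-Eb1 0.45 (−0.24 to 1.14). For H2-Ab1 it was 0.55 (−1.44 to 2.54) and for Cd74 0.47 (−0.75 to 1.70). H2-DMa and H2-DMb1 had the narrowest intervals, −0.57 to 0.47 around −0.049 and −0.52 to 0.41 around −0.053. For H2-DMb2 the difference was 0.15 (−0.95 to 1.26), for H2-Oa 0.52 (−1.05 to 2.09) and for H2-Ob 0.51 (−2.62 to 3.64). The edgeR adjusted p was 1.00 for each of the 10 genes and each interval included 0. Without both W1 libraries H2-DMb2 was at 0.58 (SE 0.47), H2-Oa at −0.21 (SE 0.46), H2-DMa at 0.090 (SE 0.22) and H2-DMb1 at −0.0069 (SE 0.22). A difference as large as 1 log2 unit lay inside the intervals of Ciita and the peptide-binding chains. These intervals come from a fit that did not use the title number. With the title number fitted as a block the SE was smaller, at 0.17 for Ciita and 0.30 for H2-Ab1, against 0.25 and 0.83 here. The median difference was 0.46 over the 10 genes and −0.029 over all genes, and the 10 genes share their libraries.

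Jak2 V617F and control cells were then compared within each gel. In elastic gel both Jak2 V617F libraries lay above both control libraries for 7 of the 10 genes (17.2% of all genes), below them for 1, Ciita (18.9% of all genes), and overlapped for H2-Ab1 and H2-DMb2. In viscous gel both lay above for 3, Cd74, H2-DMa and H2-DMb1 (18.6% of all genes), below for 2, Ciita and H2-DMb2 (19% of all genes), and overlapped for 5. Over both gels the genotypes overlapped for all 10 genes, while 3.5% of all genes had the 4 Jak2 V617F libraries above the 4 control libraries and 3.39% had them below. edgeR called 0 of the 10 genes in either gel and 0% of all genes. At an unadjusted p under 0.05 it gave 2 of the 10 in elastic gel (4.42% of all genes) and 2 of the 10 in viscous gel (7.31% of all genes). limma-voom called 0 of the 10 in either gel and 0% of all genes, and DESeq2 called 0 in elastic gel (0.298% of all genes) and 1, Ciita, in viscous gel (0.413% of all genes).

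Cd74 and Ciita lay on opposite sides between genotypes. Cd74 averaged 1425 ± 132 CPM in Jak2 V617F cells and 651 ± 257 CPM in control cells in elastic gel (SD, n = 2 each), and 1768 ± 25.1 CPM in Jak2 V617F cells and 1120 ± 428 CPM in control cells in viscous gel (SD, n = 2 each). By edgeR the log2 fold change of Jak2 V617F over control was 1.13 in elastic gel (SE 0.37, unadjusted p = 0.0191, adjusted p = 0.937) and 0.66 in viscous gel (SE 0.36, adjusted p = 0.667). Without both W1 libraries these were 0.77 (SE 0.19) and 0.31 (SE 0.19). In that fit the lone control library of a gel is assumed to vary like the Jak2 V617F groups.

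Ciita averaged 7.82 ± 1.05 CPM in Jak2 V617F cells and 10.5 ± 1.26 CPM in control cells in elastic gel (SD, n = 2 each), and 23.8 ± 3.84 CPM in Jak2 V617F cells and 42.9 ± 1.49 CPM in control cells in viscous gel (SD, n = 2 each). The edgeR log2 fold change of Jak2 V617F over control was −0.43 in elastic gel (SE 0.18, adjusted p = 0.937) and −0.85 in viscous gel (SE 0.18, unadjusted p = 0.00224, adjusted p = 0.664). The viscous value was −0.82 (SE 0.20) without both W1 libraries, and DESeq2 gave −0.85 with an adjusted p of 0.0343. Over its 15 alternative settings the adjusted p for Ciita in viscous gel ranged from that DESeq2 value to 0.965, and DESeq2 was the 1 setting under 0.05.

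Among the other genes, H2-DMb1 was 0.37 log2 units higher in Jak2 V617F than in control cells in elastic gel (SE 0.14, unadjusted p = 0.0325, edgeR adjusted p = 0.937) and 0.43 higher in viscous gel (SE 0.14, unadjusted p = 0.0189, edgeR adjusted p = 0.664). With the counts of H2-DMb1 and H2-DMb2 added up, the values were 0.26 in elastic gel (unadjusted p = 0.0797, edgeR adjusted p = 0.937) and 0.18 in viscous gel (unadjusted p = 0.189, edgeR adjusted p = 0.713), so neither stayed under 0.05. H2-DMa was 0.29 higher in elastic gel (SE 0.15) and 0.34 higher in viscous gel (SE 0.15), with the same adjusted p-values as H2-DMb1, and 0.19 (SE 0.15) higher in viscous gel without both W1 libraries. None of the peptide-binding chains was called by edgeR in either gel, as 0% of all genes were. In viscous gel their log2 fold changes were −0.094 (SE 0.28) for H2-Aa, 0.10 (SE 0.59) for H2-Ab1 and −0.29 (SE 0.20) for H2-Eb1. In elastic gel the same chains had log2 fold changes of 0.40 (SE 0.28), 0.65 (SE 0.59) and 0.16 (SE 0.20). Without both W1 libraries the elastic values were 0.18 (SE 0.25) for H2-Aa and 0.060 (SE 0.19) for H2-Eb1, and the viscous values −0.34 (SE 0.25) for H2-Aa and −0.50 (SE 0.19) for H2-Eb1. For H2-Ab1 the viscous value turned to −0.43 (SE 0.25) without both W1 libraries, and the elastic value became 0.091 (SE 0.26). H2-DMb2 was at −0.27 (SE 0.33) in elastic gel and −0.42 (SE 0.32) in viscous gel, and the elastic value turned to 0.12 (SE 0.35) without both W1 libraries. H2-Oa was at 0.86 (SE 0.47) in elastic and 0.34 (SE 0.46) in viscous gel, and 0.32 (SE 0.32) and 0.53 (SE 0.33) without W1. H2-Ob was at 1.12 (SE 0.93) and 0.61 (SE 0.92), and 0.36 (SE 0.66) and 0.0074 (SE 0.66) without W1.

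**Figure D4:**
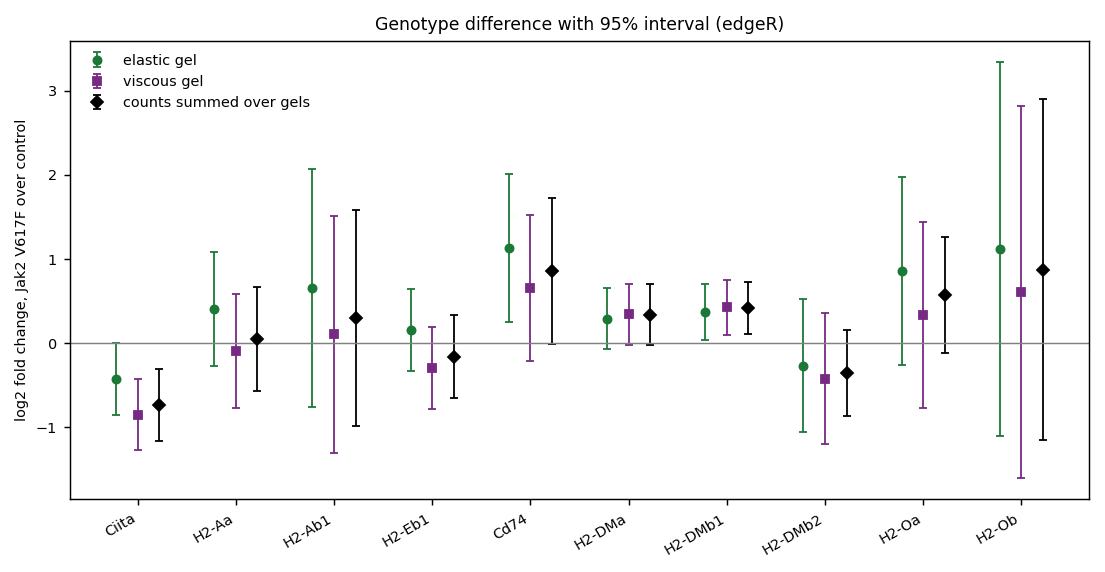
Log2 fold change of Jak2 V617F over control cells with its 95% interval from edgeR, for each gene, in elastic gel, in viscous gel and on counts summed per title number. In all 3 comparisons the estimates of Ciita and H2-DMb2 lie below 0, and those of Cd74, H2-DMa, H2-DMb1, H2-Oa and H2-Ob above it. Most intervals include 0, and the widest are those of H2-Ob.

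With the counts of both gels summed per title number, 2 sums stood against 2, and 15239 genes passed the filter. edgeR called 0 of the 10 genes and 0% of all genes, with 2 of the 10, Ciita and H2-DMb1, at an unadjusted p under 0.05 (5.22% of all genes). DESeq2 (0.696% of all genes) and limma-voom (0% of all genes) called 0 of the 10. The log2 fold change of Jak2 V617F over control was −0.74 for Ciita (SE 0.16, edgeR adjusted p = 0.792), 0.42 for H2-DMb1 (SE 0.11, edgeR adjusted p = 0.792) and 0.86 for Cd74 (SE 0.32, edgeR adjusted p = 0.792). The sum of H2-DMb1 and H2-DMb2 was at 0.23 (unadjusted p = 0.0959, edgeR adjusted p = 0.792), so that count falls to 1 when they are joined. The median over the 10 genes was 0.32, against −0.0049 over all genes. When W2 was left out and W1 alone stood for control cells, edgeR called 5 of the 10 genes in a fit that called 2664 of 16004 genes in all (16.6%). The log2 fold changes were then −0.81 for Ciita, 1.31 for Cd74, 1.16 for H2-Ab1, 0.49 for H2-DMb1 and 2.22 for H2-Ob, with edgeR adjusted p-values of 0.00689 to 0.0444. When W1 was left out and W2 alone stood for control cells, edgeR called 0 of the 10 genes, as it called 0 of 15706 genes in all, with 1999 at an unadjusted p under 0.05. The same log2 fold changes were then −0.66 for Ciita, 0.52 for Cd74, −0.23 for H2-Ab1, 0.36 for H2-DMb1 and 0.19 for H2-Ob, so H2-Ab1 changed sign.

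**Figure D5:**
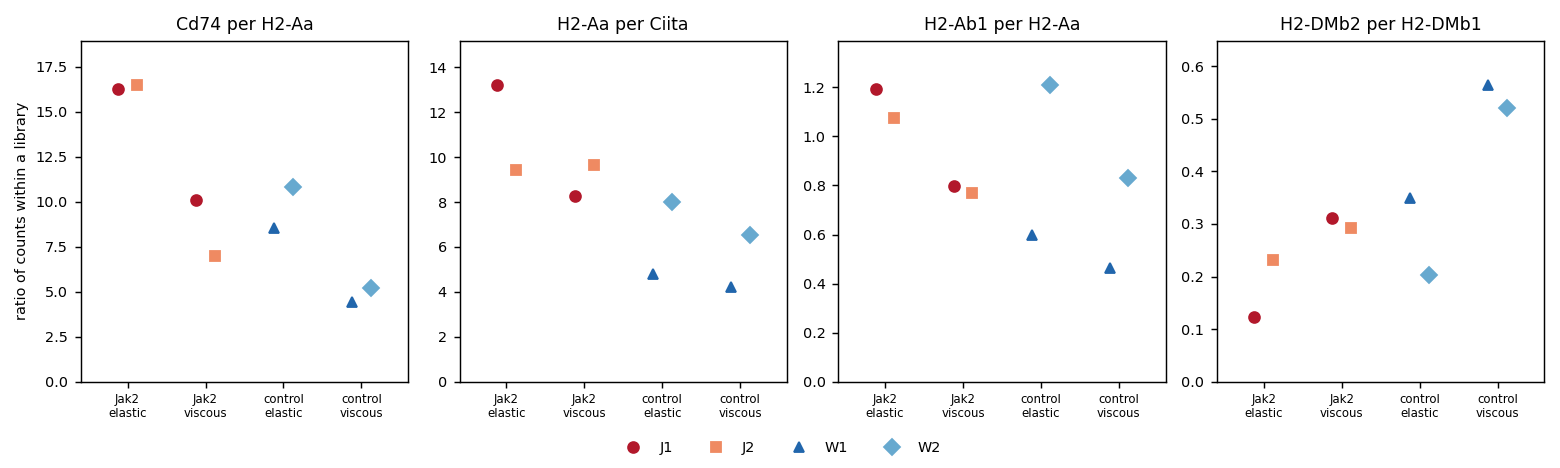
Ratio of the counts of 2 genes within each library, by group, with 1 point per library (vertical axes start at 0). Cd74 per H2-Aa is highest in Jak2 V617F cells in elastic gel, and H2-DMb2 per H2-DMb1 is lower in elastic than in viscous gel in both genotypes.

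Ratios within a library do not depend on library scaling, and they are compared between libraries only, since they are not divided by transcript length. These ratios were chosen after the values were seen and are given with no test. Cd74 had 16.3 and 16.5 counts per count of H2-Aa in elastic gel and 10.1 and 7.00 in viscous gel in Jak2 V617F cells (J1 and J2). In control cells this ratio was 8.55 and 10.8 in elastic gel and 4.41 and 5.22 in viscous gel (W1 and W2). Within each gel both Jak2 V617F libraries exceeded both control libraries, and within each genotype both elastic libraries exceeded both viscous ones, W1 included. The invariant chain and the chain it escorts thus did not keep a fixed proportion across the groups.

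H2-Aa had 13.2 and 9.45 counts per count of Ciita in elastic gel and 8.25 and 9.64 in viscous gel in Jak2 V617F cells. In control cells the ratio was 4.82 and 7.99 in elastic gel and 4.22 and 6.51 in viscous gel. The lowest Jak2 V617F library (J1 in viscous gel, 8.25) was just above the highest control library (W2 in elastic gel, 7.99). That margin was smaller than the gap between W1 and W2 in either gel. H2-Ab1 had 119.1 and 107.3 counts per 100 counts of H2-Aa in elastic gel and 79.8 and 77.0 in viscous gel in Jak2 V617F cells. In control cells W2 was similar, with 120.9 in elastic and 82.9 in viscous gel, while W1 had 1020 H2-Ab1 and 1700 H2-Aa counts in elastic gel and a value of 46.3 in viscous gel. The ratio of the I-A chains was thus higher in elastic than in viscous gel in each of the 4 title numbers, and W1 lay below the other 3 numbers in both gels.

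H2-DMb2 had 12.4 and 23.2 counts per 100 counts of H2-DMb1 in elastic gel and 31.1 and 29.1 in viscous gel in Jak2 V617F cells. In control cells it had 34.9 and 20.3 in elastic gel and 56.4 and 52.1 in viscous gel. The ratio of H2-DMb1 to H2-DMa varied less between libraries, from 96.1 to 123.1 counts per 100 counts of H2-DMa over the 8 libraries.

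H2-Aa, H2-Ab1, H2-Eb1, Cd74, H2-DMa, H2-DMb1 and H2-Ob were lower in W1 than in W2 in both gels, by amounts that differed between genes. The share of all genes lower in W1 in both gels by any amount was not counted. W1 exceeded W2 for Ciita by 0.24 log2 CPM in elastic and 0.07 in viscous gel. W1 was below W2 for H2-Ab1, with differences of −1.49 in elastic and −1.40 in viscous gel, and for Cd74, with −0.83 and −0.80. For H2-Aa the differences were −0.49 and −0.56, and for H2-Eb1 −0.20 and −0.45. H2-DMa (−0.02 and −0.32) and H2-DMb1 (−0.08 and −0.17) were also lower in W1. H2-DMb2 (0.70 and −0.06) and H2-Oa (−1.37 and 0.35) changed direction between gels. H2-Ab1 and H2-Ob were at least 1 log2 CPM lower in W1 than in W2 in both gels, as were 3.37% of all genes, and 0 of the 10 genes were that much higher, as were 5.48% of all genes. The cause of the difference between W1 and W2 was not tested. Between J1 and J2 the differences of the 10 genes ran from −0.77 to 0.36 in elastic gel and from −0.56 to 1.32 in viscous gel, where the highest was that of H2-Ob.

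The pattern of each gene over the 8 libraries was set beside that of Ciita by Pearson's r of log2 CPM, as a description that includes the gel difference and the shared libraries. H2-DMb2 had r = 0.96, H2-Eb1 0.93 and H2-Aa 0.85, and they ranked 3, 18 and 71 among 10099 genes with a mean of at least 5 CPM. H2-DMa (0.51), H2-Ab1 (0.48) and H2-DMb1 (0.48) ranked between 1214 and 1466. Cd74 (0.15) ranked 3875 and H2-Oa had r = −0.15. H2-Ob (−0.32) was under the level limit.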

How the data were processed

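RNA of 8 samples was sequenced after mRNA library preparation. The authors deposited whole-number counts for each Ensembl gene ID without normalization, and the series table and the 8 per-library files were equal. The submitters' processing notes name GRCm38, DESeq2 and Salmon with neither versions nor order. How estimates were summed, rounded and filtered was not given there. Each ID had at least 10 counts over all libraries. The table carries no symbols: those of the 10 genes came with the gene list, and positions were matched by symbol in the RefSeq table, which held 0 Ensembl IDs. Lists of other pathway genes and markers, the genes most like Ciita by name, sequences and promoter motifs were therefore not analysed here.

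The members and lists were chosen with earlier results of these data known. The rule for named genes took all 10 members and would have named other genes only by a looked-up symbol.

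Counts were fitted with edgeR 4.0.16 (R 4.3.3; filterByExpr by group, TMM, quasi-likelihood, two-sided) as 4 group means over 8 libraries, which share 1 spread per gene, and as 2 sums against 2 for genotype over both gels. p-values were adjusted by Benjamini-Hochberg over all genes, with calls under 0.05. log2 CPM used a prior count of 2, SEs were derived from the test statistic, and intervals take the fit's total degrees of freedom. Alternatives were DESeq2 1.42.0 (Wald), limma-voom (limma 3.58.1), other scalings and filters, libraries left out and the title number as a block. The 2 libraries of each group differed beyond counting error, with chi-square values divided by their degrees of freedom of 20.5 to 282.3. Figures used matplotlib 3.10.9 in Python 3.11.15.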

Additional observations from a re-analysis of the deposited data

How the results depend on the processing

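With 2 libraries a group, the edgeR test makes few calls here, and its 0 calls do not show that genes did not differ. DESeq2 called 134 genes for gel over both genotypes, 35 in Jak2 V617F cells, 35 in control cells, 2 for the difference of gel effects, 44 for genotype in elastic gel, 61 in viscous gel and 106 on summed counts. For gel over both genotypes edgeR called 1 with no low-count filter, 1 with at least 50 counts in 2 or more libraries and 2 without both W1 libraries, and without W1 it called 1 for gel in Jak2 V617F cells. The genotype effect averaged over 8 libraries gave 2 calls. With 1 library left out each gel, genotype and difference contrast stayed at 0 calls; with 1 sum left out, genotype ranged over 0 to 2664 calls (2664 without W2).

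With the title number as a fixed replicate block, edgeR called 5 genes for gel over both genotypes and 0 in the other gel contrasts. Deviations of same-numbered libraries correlated at −0.089 in Jak2 V617F and 0.53 in control cells. The main fits did not use the number as a pairing, although same-numbered control libraries shared deviations. With the block, the SE of the difference of gel effects was smaller for each gene followed here. The difference was then 0.43 for Ciita (SE 0.17, 0.25 in the main fit) and 0.47 for Cd74 (SE 0.24, 0.51 in the main fit). For H2-Ab1 it was 0.58 (SE 0.30, 0.83 in the main fit).

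Of the 10 genes, DESeq2 called Ciita for genotype in viscous gel (log2 fold change −0.85). Without both W1 libraries H2-DMa (0.090) and H2-Oa (−0.21) turned sign for the difference of gel effects, H2-DMb2 (0.12) for genotype in elastic gel and H2-Ab1 (−0.43) in viscous gel. The sum of H2-DMb1 and H2-DMb2 gave 0.076 for the difference of gel effects, opposite in sign to H2-DMb1, and 0.26, 0.18 and 0.23 for genotype in elastic gel, in viscous gel and on summed counts, opposite in sign to H2-DMb2.

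With 1 library or sum left out, these log2 fold changes crossed 0. For genotype in elastic gel, H2-DMb2 ranged over −0.70 to 0.12. In viscous gel H2-Aa ranged over −0.39 to 0.22, H2-Ab1 −0.43 to 0.97, H2-Oa −0.023 to 0.63 and H2-Ob −0.26 to 1.65. On summed counts H2-Aa ranged over −0.17 to 0.32, H2-Ab1 −0.23 to 1.16 and H2-Eb1 −0.32 to 0.026. For the difference of gel effects H2-Ab1 ranged over −0.32 to 1.48, H2-DMa −0.22 to 0.10, H2-DMb1 −0.17 to 0.067, H2-DMb2 −0.28 to 0.54, H2-Oa −0.017 to 1.37 and H2-Ob −0.53 to 2.26. For gel in control cells 2 wide ranges stayed below 0, that of H2-Ab1 at −2.24 to −0.44 and that of Cd74 at −1.25 to −0.32. Where 1 library remained in a group, its spread was taken from the other groups. The cause was not tested. Other scalings shifted the all-gene median log2 fold change by at most 0.022. Motif alternatives were not run.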
